A study of Mus musculus with 13 samples.

Results

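H3K27ac ChIP-seq peak lists were examined at Yap1, Wwtr1 (which encodes TAZ) and the genes for their DNA-binding partners, Tead1, Tead2, Tead3 and Tead4. Vgll3 and Vgll4, for vestigial-like proteins that bind TEAD, were also members. Members were chosen by name from the pathway, and a peak counted for a gene when it overlapped the gene body plus 5 kb on each side. These 8 of 21938 annotated protein-coding genes held 400 of the 256200 peaks in the 9 lists, and 7 of them had a peak in at least 1 list, as did 14536 protein-coding genes in all. The lists came from 9 cell lines, 1 list per line, established from melanomas of mice that all carried Tyr::NRAS(Q61K) and were heterozygous for Cdkn2a. The Ecad lines, from Cdh1 F/F mice without Cre, were Ma_1007 and Ma_1181 (male) and Ma_1014 and Ma_1039 (female). The ΔEcad lines, from Cdh1 F/F mice with Tyr::CreA, a Cre driven by a tyrosinase promoter and so directed to the melanocyte lineage, were Ma_1062 and Ma_1456 (male) and Ma_1057, Ma_1064 and Ma_1069 (female). The ages of the mice are not stated in the sources used here, and whether lines of 1 group came from separate litters is not stated either, so the p-values measure the spread between these lines only.

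H3K27ac, the acetylation of lysine 27 on histone H3, marks active promoters and enhancers. YAP and TAZ are co-activators that do not bind DNA themselves. When the Hippo kinases MST and LATS are inactive, YAP and TAZ enter the nucleus, bind a TEAD protein and switch on growth genes through a TEAD element, whose core is GGAATG or, on the other strand, CATTCC. Vestigial-like proteins such as VGLL3 and VGLL4 bind the same TEAD surface, and VGLL4 competes with YAP for it. The study examined the part of E-cadherin in melanoma that is biased towards females, and YAP1 was among the pathways it followed.

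Of the 8 melanocyte markers checked, 7 (Mitf, Sox10, Pax3, Dct, Tyr, Pmel and Mlana) had a promoter peak in all 9 lists and Tyrp1 in 6. None of the 4 keratinocyte markers was called in any list, and 5 of 6 fibroblast, 3 of 4 endothelial and 3 of 4 leukocyte markers were called in none. The exceptions were Pdgfra and Tek, in Ma_1007 alone, and Cd68, in the 4 male lists. Xist was called in the 5 female lists and 4 Y-linked genes in the 4 male lists. The Cdh1 promoter was called in 0 lists of either genotype, so it does not check the genotype. Peaks within 5 kb of Cdh1 covered 1.66, 2.48 and 3.16 kb in the female ΔEcad lists and 8.79 and 7.66 kb in female Ecad lists. They covered 4.45 and 7.38 kb in male ΔEcad and 5.88 and 5.14 kb in male Ecad lists, so this length did not follow genotype in males. The lists held from 20741 (Ma_1069) to 41663 (Ma_1007) peaks that covered from 29.5 to 67.2 Mb, and the female ΔEcad lists had the 3 lowest median peak widths, from 943 to 1019 bp against 1059 to 1195 bp. Depth is unknown, as no read counts are given, and a missing peak means only that none passed the threshold. In these bulk libraries fewer cells with the mark and less of the mark per cell cannot be told apart.

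The start regions of Yap1 and Wwtr1 carried the sharpest difference in peak shape, so their sequences are shown first. RefSeq promoters, 250 bases before to 50 after a start, were matched by symbol for 6 of the 8 members (build GRCm38.p6, the build of the peaks). In the 5 promoters printed here, 5′ to 3′ in the direction of the gene, capitals mark each TEAD core, searched as GGAATG on both strands.
Yap1, chr9:8004547-8004846, minus strand: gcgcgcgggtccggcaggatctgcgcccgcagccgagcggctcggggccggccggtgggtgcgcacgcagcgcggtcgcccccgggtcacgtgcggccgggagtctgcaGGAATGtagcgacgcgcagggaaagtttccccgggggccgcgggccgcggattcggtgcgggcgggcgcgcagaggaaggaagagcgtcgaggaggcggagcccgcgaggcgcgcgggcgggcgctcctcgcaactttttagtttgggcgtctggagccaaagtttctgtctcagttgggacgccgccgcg
Wwtr1, chr3:57575861-57576160, minus strand: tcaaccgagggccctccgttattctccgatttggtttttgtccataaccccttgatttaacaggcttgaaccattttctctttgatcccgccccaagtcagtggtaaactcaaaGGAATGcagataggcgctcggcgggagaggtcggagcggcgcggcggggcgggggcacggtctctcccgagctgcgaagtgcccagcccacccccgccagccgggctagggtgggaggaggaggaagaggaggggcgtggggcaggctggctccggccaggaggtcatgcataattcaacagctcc
Vgll4 (upstream start), chr6:114969154-114969453, minus strand: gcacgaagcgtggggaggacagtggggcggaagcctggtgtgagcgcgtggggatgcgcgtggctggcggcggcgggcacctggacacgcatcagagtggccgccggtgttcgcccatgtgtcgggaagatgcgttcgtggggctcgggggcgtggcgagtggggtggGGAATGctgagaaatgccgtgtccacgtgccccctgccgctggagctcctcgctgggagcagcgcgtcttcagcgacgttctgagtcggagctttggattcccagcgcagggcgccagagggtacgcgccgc
Vgll3, chr16:65814939-65815238, plus strand: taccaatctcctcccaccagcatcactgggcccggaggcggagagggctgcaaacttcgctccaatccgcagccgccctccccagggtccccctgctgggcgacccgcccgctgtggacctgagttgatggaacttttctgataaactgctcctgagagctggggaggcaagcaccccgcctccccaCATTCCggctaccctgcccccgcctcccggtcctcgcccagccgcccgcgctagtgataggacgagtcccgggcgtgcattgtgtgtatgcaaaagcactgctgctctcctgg
Tead3 (the second of its 3 entries), chr17:28350551-28350850, minus strand: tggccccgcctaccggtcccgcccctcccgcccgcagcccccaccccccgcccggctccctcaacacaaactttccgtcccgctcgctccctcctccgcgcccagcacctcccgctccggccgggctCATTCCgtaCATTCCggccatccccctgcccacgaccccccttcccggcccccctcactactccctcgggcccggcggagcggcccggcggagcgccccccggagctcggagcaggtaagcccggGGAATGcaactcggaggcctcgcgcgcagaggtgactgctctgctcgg
A TEAD core stood in at least 1 promoter of 5 of the 6 members with an entry, in single copy in Yap1, Wwtr1, Vgll4 and Vgll3 and 3 times in the Tead3 promoter shown. Counted by entry, 7 of the 9 member promoters held a core, and entries of 1 gene overlapped in part. The Tead2 promoter and the third Tead3 entry held none. Among all 32841 promoters of this length 14.7% held one, and among the 12453 with at least 13 CpG, the number in the poorest member promoter (Tead2), 10% did. The members' promoters were rich in CpG, from 13 in Tead2 to 49 in Yap1 against a median of 7 over all promoters. A match describes the letters and is not a measured binding site. Vgll3 and Tead3, each with the core in at least 1 promoter, had no promoter peak in any list.

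The acetylated members fell into a widely marked set (Wwtr1, Tead1 and Vgll4), a narrowly marked set (Yap1 and Tead4), and Tead2, Tead3 and Vgll3 with little or no mark of their own. Covered length is the summed length of peaks within the gene window. Its median over the 9 lines was 29.1 kb at Tead1, 24.9 kb at Vgll4, 21.3 kb at Wwtr1, 6.90 kb at Tead4, 4.24 kb at Yap1, 1.89 kb at Tead3 and 0.341 kb at Tead2. Against a median of 1.22 kb over the 14536 genes, the Tead1, Vgll4 and Wwtr1 medians stood at percentiles 99.54, 99.36 and 99.04, and as a percent of their long windows (12.2, 20.8 and 16.3%) at percentiles 86.9, 94.6 and 91.7. Yap1 with 5.13% of its window and Tead4 with 7.98% lay at percentiles 64.87 and 76.99, and by covered length in kb at percentiles 84.5 and 92.5.

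**Figure D1:**
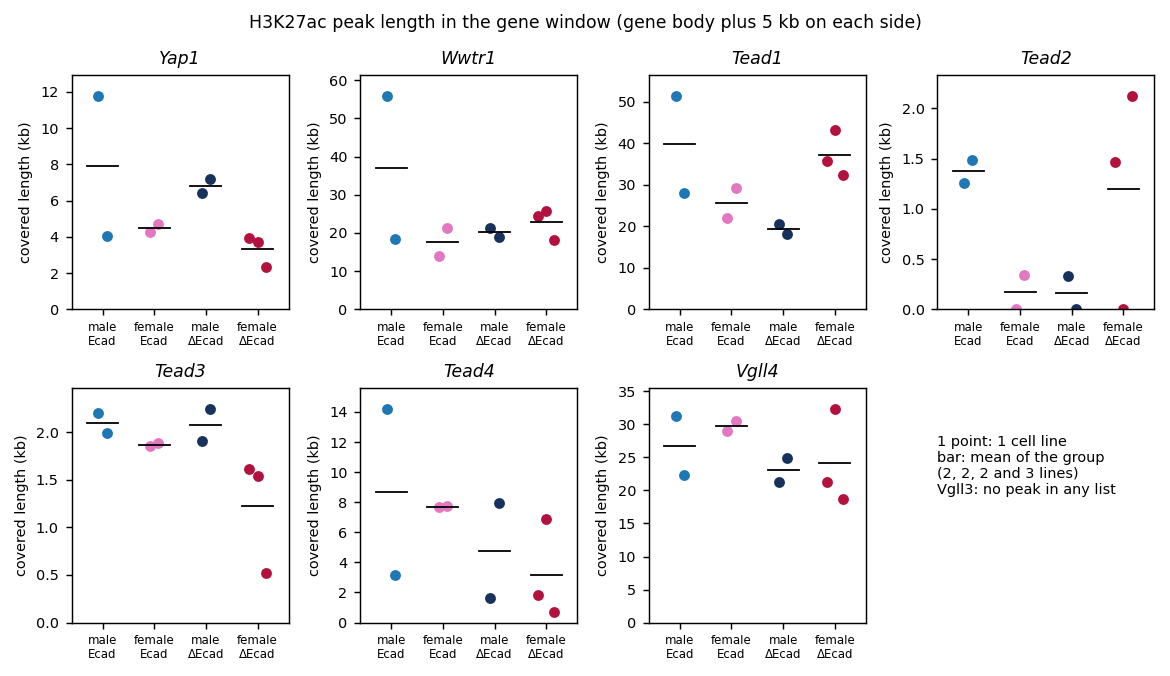
Peak length in kb (y axis, from 0) within the window of each of the 7 members with a peak, by group (x axis). Each point is 1 cell line and the bar is the group mean. The female ΔEcad lines are the 3 lowest for Yap1 (2.36 to 3.95 kb) and Tead3, and Ma_1007 is the highest male Ecad point for Yap1, Wwtr1, Tead1, Tead4 and Vgll4.

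Tead1, a TEAD factor gene on chromosome 7 (112679318 to 112906807, plus strand, GENCODE M21), took a larger share of the list in each female ΔEcad line than in any other line, a separation that was not seen in kb. Its covered length was 51.4 and 28.0 kb in the male Ecad lines Ma_1007 and Ma_1181, 21.9 and 29.1 kb in the female Ecad lines, 20.5 and 18.1 kb in the male ΔEcad lines, against 35.7 kb in Ma_1057, 43.2 kb in Ma_1064 and 32.3 kb in Ma_1069, the female ΔEcad group. The female ΔEcad lines were above every other line except Ma_1007, the longest list. The means were 37.1 ± 5.54 kb (SD, n = 3) and 28.1 ± 12.2 kb (SD, n = 6), a difference of 8.91 kb, no larger than the line-to-line spread (two-sided exact permutation p = 0.298, adjusted p = 0.522 over all genes).

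As a share of the length covered by the whole list, the order was clearer. Tead1 took 765 and 687 bp per Mb of the list in male Ecad lines, 478 and 636 in female Ecad lines, 552 and 374 in male ΔEcad lines, and 1044, 1091 and 1096 bp per Mb in female ΔEcad lines. All 3 female ΔEcad lines lay above all 6 others, 1077 ± 28.9 (SD, n = 3) against 582 ± 143 bp per Mb (SD, n = 6). The exact two-sided p of this difference was 0.0119, the smallest that 84 choices of lines allow, and it did not pass adjustment over all genes (adjusted p = 0.149). By that measure 18.1% of all genes had an unadjusted p under 0.05 (717 higher and 1913 lower in female ΔEcad), and of the 7 members tested only Tead1 did. In kb without Ma_1007, Tead1 was 13.6 kb higher in female ΔEcad lines (exact p = 0.0179, adjusted p = 0.129). Ma_1007 was the only other line above them, so leaving it out by itself brought that p to the smallest value possible. With every list shortened to its 20741 strongest peaks, the other way of taking list length into account, the difference was 8.51 kb and did not pass the test (exact p = 0.226).

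The genotype difference at Tead1 also ran in opposite directions in the 2 sexes. Female ΔEcad lines covered 11.6 kb more than female Ecad lines on average (37.1 against 25.5 kb), and male ΔEcad lines covered 20.4 kb less than male Ecad lines (19.3 against 39.7 kb). The male difference was -8.73 kb without Ma_1007 (19.3 against 28.0 kb) and -32.1 kb without Ma_1181. Within females every ΔEcad line was above every Ecad line, and within males every ΔEcad line was below every Ecad line, an arrangement shared by 1.7% of genes. The female difference exceeded the male one by 32.0 kb (exact permutation of genotype labels within each sex, 60 choices, two-sided, p = 0.0333, adjusted p = 0.564), in a test chosen after these values were seen. In the same test 5.91% of all genes had an unadjusted p under 0.05, and none of the other 6 members tested did. The 4 processing alternatives gave an exact p of 0.0167 or 0.0333. The arrangement also held without each of the 9 lines, but leaving out a line cannot break a complete separation. Without any 1 female ΔEcad line the exact p was 0.0556, the smallest that the remaining label choices allow, so it could not stay under 0.05. The p was also not under 0.05 without Ma_1014 or either male ΔEcad line, each of which leaves 1 line in its group.

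The Tead1 mark was spread over a promoter and a row of intronic elements. The 9 lists merged into 25 regions in this window, of which 7 were called in all 9 lists and 5 in Ma_1007 alone. The strongest, 18.7 kb into the gene (chr7:112694362-112701717, intronic), had a −log10 q at percentiles 99.2 and 82.9 within the lists of the male Ecad lines, 81.1 and 94.2 in female Ecad, 85.2 and 74.0 in male ΔEcad and 96.3, 91.7 and 94.8 in female ΔEcad lines. The next, 39.8 and 146 kb into the gene, were at percentiles 72.8 and 65.8, and 61.4 and 53.2, in the male ΔEcad lines Ma_1062 and Ma_1456, below all 7 other lists in both elements. This order was found in 3 of the 25 Tead1 regions, the third being the one at the first start (66.2 and 54.4), in none of the other member regions and in 0.848% of all regions, and it was looked for after these values were seen. It can arise only where all 7 other lists have a peak, and 13.7% of all regions were called in all 9 lists. The share of 0.848% is thus lower than the share among regions able to show the order, which was not counted. A region 32.3 kb into the gene, singled out like the next element after its values were seen, was called in all 3 female ΔEcad lists (percentiles 64.7, 66.0 and 74.0) and in Ma_1007 (88.9), Ma_1039 (44.3) and Ma_1062 (16.8), and in none of the other 3.

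An internal start of Tead1, with a cluster of transcripts from 112759384 to 112759546, lay beside the element at 83.6 kb. The widest peak of that element measured 5182, 4019 and 5437 bp for Ma_1057, Ma_1064 and Ma_1069 of the female ΔEcad group. It measured 4776 and 2006 bp in the male Ecad lines, 1595 bp in Ma_1039, 699 and 568 bp in the male ΔEcad lines, and was not called in Ma_1014. Female ΔEcad widths were thus at the top of the range together with Ma_1007.

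**Figure D2:**
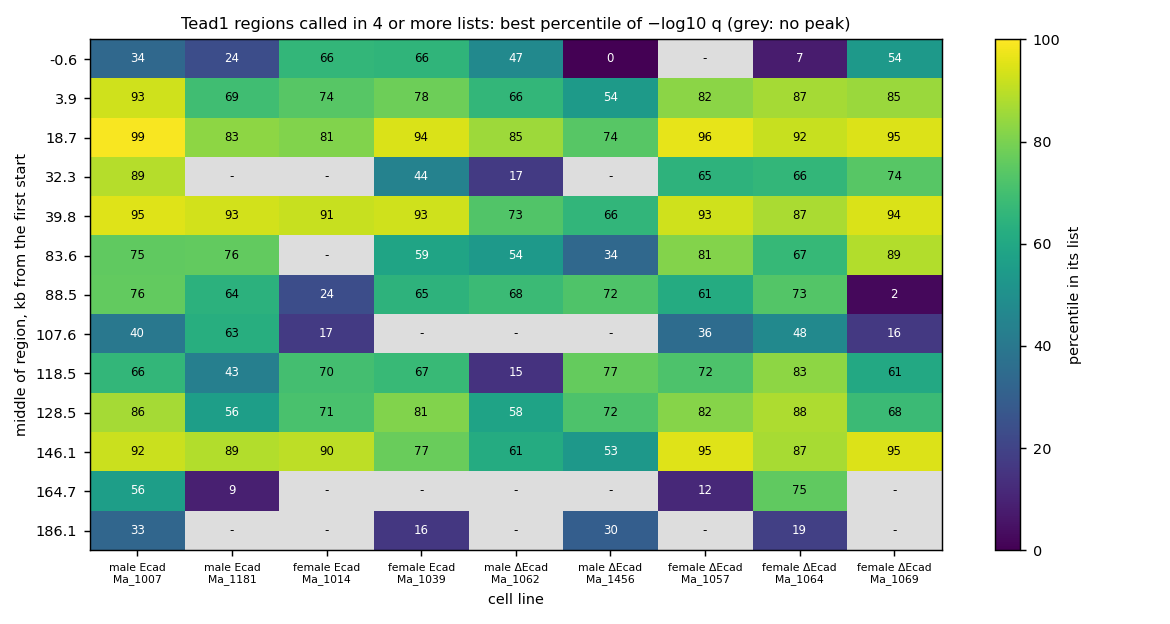
Tead1 regions called in at least 4 lists (rows, by the distance of their middle from the first start in kb) in the 9 lines (columns). Colour and number give the percentile of −log10 q within the list, and grey with a dash no peak. At 39.8 and 146.1 kb the 2 male ΔEcad lines hold the lowest values, an order that 0.848% of all regions share. Only regions with a peak in all the other lists can show that order. At 32.3 kb 3 lists have no peak.

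The summits of the 18.7 kb element fell within 300 bases of each other in all 9 lists, and those of the 146 kb element in 8 of 9, so both windows are shown (GRCm38, lower case, with capitals for the TEAD core and for the SOX-type letters ACAAAG, searched on both strands).
Tead1 element at 18.7 kb, chr7:112697403-112697702, plus strand: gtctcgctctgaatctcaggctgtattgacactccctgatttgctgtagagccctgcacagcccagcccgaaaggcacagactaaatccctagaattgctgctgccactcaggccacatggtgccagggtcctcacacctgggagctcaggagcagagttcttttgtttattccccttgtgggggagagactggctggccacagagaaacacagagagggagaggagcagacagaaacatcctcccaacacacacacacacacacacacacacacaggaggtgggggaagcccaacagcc
Tead1 element at 146 kb, chr7:112826628-112826927, plus strand: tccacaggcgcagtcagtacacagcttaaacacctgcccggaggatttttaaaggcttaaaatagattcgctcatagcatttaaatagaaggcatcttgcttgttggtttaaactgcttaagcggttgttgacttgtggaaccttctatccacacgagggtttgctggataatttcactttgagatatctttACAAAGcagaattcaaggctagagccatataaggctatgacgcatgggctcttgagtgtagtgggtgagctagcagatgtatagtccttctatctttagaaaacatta
The first window held neither motif and the second a single ACAAAG, letters found in 26.5% of all 59643 region windows of this length.

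Yap1, the gene for the co-activator itself (chromosome 9, 7931999 to 8004596, minus strand), had a promoter peak, meaning a peak within 1 kb of an annotated start, in all 9 lists. Its covered length was 11.8 and 4.03 kb in male Ecad, 4.24 and 4.71 kb in female Ecad, 6.43 and 7.20 kb in male ΔEcad and 3.95, 3.73 and 2.36 kb in female ΔEcad lines. The 3 female ΔEcad lines were the lowest, and 3 of the 4 male lines were above every female line. The female ΔEcad mean was 3.35 ± 0.862 kb (SD, n = 3) and that of the other lines 6.40 ± 2.92 kb (SD, n = 6), which did not pass the test of means (exact p = 0.107, adjusted p = 0.273). On ranks over the lines the same comparison did (exact p = 0.0238, adjusted p = 0.109). As a share of the list it did not, and the groups overlapped. The shares were 96.6 ± 17.9 (SD, n = 3) against 132 ± 38.4 bp per Mb (SD, n = 6), with an exact p of 0.202. In kb 25.9% of all genes had an unadjusted p under 0.05 in this comparison, 3548 of 3762 of them lower in female ΔEcad lines.

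By sex the Yap1 difference was larger. Female lines averaged 3.80 ± 0.885 kb (SD, n = 5) and male lines 7.36 ± 3.24 kb (SD, n = 4), with an unadjusted exact p of 0.0238 and an adjusted p of 0.349. As a share of the list the values were 97.1 ± 13.2 and 149 ± 35.6 bp per Mb, again with an unadjusted exact p of 0.0238 (adjusted p = 0.578). In this comparison 12.7% of all genes reached an unadjusted p under 0.05 by covered length (1810 of 1851 lower in females) and 8.23% by share. Without any 1 of 8 lines the unadjusted p for Yap1 rose to between 0.0536 and 0.0857, the exception being Ma_1181. By genotype Yap1 gave 4.73 ± 2.01 kb in ΔEcad (SD, n = 5) and 6.19 ± 3.74 kb in Ecad lines (SD, n = 4), with an exact p of 0.540.

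At the Yap1 start the form of the peak separated the groups. In Ma_1007, Ma_1181, Ma_1014, Ma_1039, Ma_1062 and Ma_1456 a single peak of 3174, 2385, 2490, 2491, 2726 and 2820 bp ran across the start. In all 3 female ΔEcad lists it was in 2 pieces, one of 1650, 1257 and 1247 bp within the gene and one of 453, 410 and 520 bp upstream, in Ma_1057, Ma_1064 and Ma_1069. The gap between them was 526, 586 and 628 bp long and held the start, and its common part (chr9:8004283-8004808) took in bases 39 to 300 of the Yap1 promoter printed above, the TEAD core at base 110 among them.

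Wwtr1, the TAZ gene, showed the same form. A single peak crossed its start in the 6 other lists. In Ma_1057, Ma_1064 and Ma_1069 it was in pieces of 1703, 1619 and 1562 bp in the gene and 559, 559 and 552 bp upstream, with gaps of 263, 359 and 325 bp over the start. Their common part (chr3:57575768-57576030) took in bases 131 to 300 of the printed promoter and ended short of its TEAD core at base 115.

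Tead1, whose start region also lies within 1 kb of a start of 2310014F06Rik, differed from both, with a gap at its first start in 8 lists and only the piece within the gene in Ma_1057. Of 4045 protein-coding genes whose first start was called in all 9 lists, 94 (2.32%) were in pieces in every female ΔEcad list and in no other, Yap1 and Wwtr1 among them, and 13 showed the reverse. The share of these promoters in pieces was 22.15, 21.04 and 18.54% in the female ΔEcad lists Ma_1057, Ma_1064 and Ma_1069 and 20.7, 17.7, 18.2, 10.2, 8.01 and 5.78% in Ma_1062, Ma_1456, Ma_1039, Ma_1014, Ma_1007 and Ma_1181. The means of 20.6 ± 1.85% (SD, n = 3) and 13.4 ± 6.20% (SD, n = 6) differed by 7.15 percentage points (exact p = 0.0714, two-sided). Peaks in pieces were first noticed at these genes, and the part that the narrower peaks of the female ΔEcad lists play in it was not tested.

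**Figure D3:**
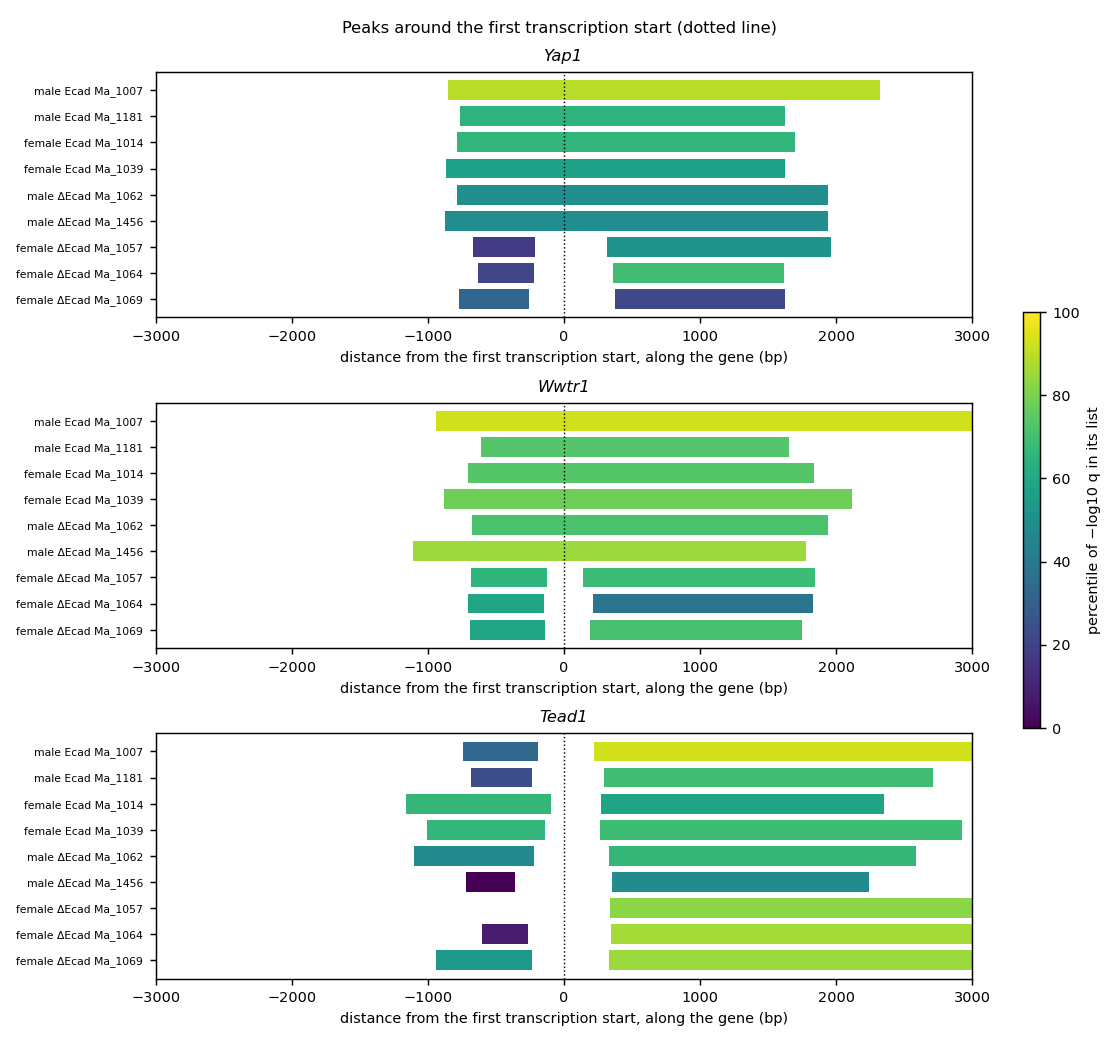
Peaks around the first start of Yap1, Wwtr1 and Tead1 (x axis, bp from the start along the gene) in the 9 lists (rows), coloured by percentile of −log10 q. At Yap1 and Wwtr1 the bar is unbroken over the dotted start line in 6 lists and broken in the 3 female ΔEcad lists, whereas at Tead1 no bar crosses the start in any list.

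Away from its start Yap1 held few peaks, from 3 to 6 per list in all. Of its 8 merged regions, the start region was the only one called in all 9 lists. An intronic region 20.5 kb into the gene was called in 8 lists, not in Ma_1069, at a percentile of 84.8 in Ma_1007, 56.0 in Ma_1064 and from 12.5 to 34.4 in the other 6. A region 54.3 kb into the gene (chr9:7949548-7951043) was called in both male ΔEcad lists, at percentiles 48.9 and 52.1, and in Ma_1007 at 4.5.

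Wwtr1 (chromosome 3, 57455649 to 57575910, minus strand) carried several broad elements, and peaks covered from 10.7 to 19.8% of its window in 8 lines and 42.9% in Ma_1007. Its covered length was 55.9 and 18.3 kb in male Ecad, 14.0 and 21.3 kb in female Ecad, 21.4 and 19.03 kb in male ΔEcad and 24.4, 25.8 and 18.1 kb in female ΔEcad lines. Ma_1007 stood far above the other 8 lines, which ranged from 14.0 to 25.8 kb and overlapped between groups. Against the other lines the female ΔEcad lines differed by −2.21 kb (exact p = 0.940) and, without Ma_1007, by 3.97 kb (exact p = 0.179). It was 0.107 kb without Ma_1069, so the direction depended on which line was included.

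Of 18 merged Wwtr1 regions, 7 were called in all 9 lists, and 7 in Ma_1007 alone. The strongest was at percentiles 96.4 and 70.3 in male Ecad, 67.98 and 92.01 in female Ecad, 81.7 and 90.1 in male ΔEcad and 93.8, 86.7 and 91.9 in female ΔEcad lists. It was present everywhere, and the groups overlapped.

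Of the 76 windows of 300 bases around the median summits of the regions of all members, 8 (10.5%) held a TEAD core against 15.4% of all region windows, 26 (34.2%) an ACAAAG against 26.5%, and 5 (6.58%) an AP-1 site, TGANTCA, against 9.89%. The E-box CACGTG stood in 5 (6.58%) against 3.87% and the TCATGTG of MITF, the melanocyte factor, in 2 (2.63%) against 5.75%. None of the 5 motifs searched contains another.

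The start region of Wwtr1 had lower percentiles in the female ΔEcad lists (68.3, 58.9 and 70.6) than in the other lists (71.7 to 92.7), an order that 4.28% of all regions shared. Only regions with a peak in all the other lists can show that order. One Wwtr1 region near the 3′ end of the gene (chr3:57463039-57464399, overlapping an exon) was called in both male Ecad lists, at percentiles 55.1 and 18.5, and in no other. It was the only one of the 76 member regions called in every line of a group, genotype or sex and in no other line, a pattern that 4.25% of all 59668 regions showed. No member region was called in the 3 female ΔEcad lists alone, where 0.434% of all regions were.

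Vgll4, whose product competes with YAP for TEAD, was marked over 2 very broad elements. The gene lies on chromosome 6 (114860628 to 114969994, minus strand), and its window also reaches Atg7. Its covered length was 31.2 and 22.3 kb in male Ecad, 29.0 and 30.5 kb in female Ecad, 21.3 and 24.9 kb in male ΔEcad and 21.2, 32.3 and 18.7 kb in female ΔEcad lines. The groups overlapped, and no comparison in kb passed the test (exact p from 0.198 to 0.698 over the 3 comparisons). As a share of the list, the 5 female lines (621 to 817 bp per Mb) were all above the 4 male lines (465 to 576 bp per Mb), with an exact p of 0.00794, the smallest that 126 choices allow, and an adjusted p of 0.440. By that measure 8.23% of all genes had an unadjusted p under 0.05 between the sexes, 161 higher and 1036 lower in females.

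The acetylated starts of Vgll4 were internal. The 2 upstream starts, at 114969994 and 114969180, had no peak within 1 kb in any list, although the upstream promoter printed above held 34 CpG. The start at 114921821 was called in all 9 lists, under a region at percentiles from 89.6 to 98.0, and 3 starts of non-coding transcripts further in were called in all 9 as well. The broadest region of all members lay 91.7 kb into the gene (chr6:114871344-114885312, 13969 bp), at percentiles from 91.5 to 99.3. It was a single peak of 12445, 13620 and 13519 bp in Ma_1007, Ma_1014 and Ma_1039 and in pieces in the other lists, with the longest piece 6248 bp or less.

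One Vgll4 element, chosen after its values were seen, stood out in the female ΔEcad lists. An intronic region 68.3 kb into the gene (chr6:114898707-114904777) was at percentiles 91.9, 97.0 and 93.5 in Ma_1057, Ma_1064 and Ma_1069, against 85.9 in Ma_1007, 35.6 in Ma_1181, 28.2 in Ma_1014, 49.3 in Ma_1039 and 59.9 in Ma_1062, and it was not called in Ma_1456. Its widest peak measured 3938, 6071 and 3894 bp in the female ΔEcad lists, 4103 bp in Ma_1007 and from 998 to 1578 bp in the other 4 lists that called it. All 3 percentiles lay above those of the other 6 lists, an order found in 1.63% of all regions and in no other member region. Only regions with a peak in all 3 female ΔEcad lists can show that order. Summits of 7 of 8 lists fell in the window shown, which held neither a TEAD core nor an ACAAAG.
Vgll4 element at 68.3 kb, chr6:114899986-114900285, minus strand: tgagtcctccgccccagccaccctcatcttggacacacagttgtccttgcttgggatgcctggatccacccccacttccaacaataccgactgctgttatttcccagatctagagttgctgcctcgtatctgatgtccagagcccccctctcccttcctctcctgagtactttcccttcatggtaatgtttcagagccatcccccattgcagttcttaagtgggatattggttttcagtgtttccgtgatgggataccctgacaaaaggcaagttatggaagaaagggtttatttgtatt

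**Figure D4:**
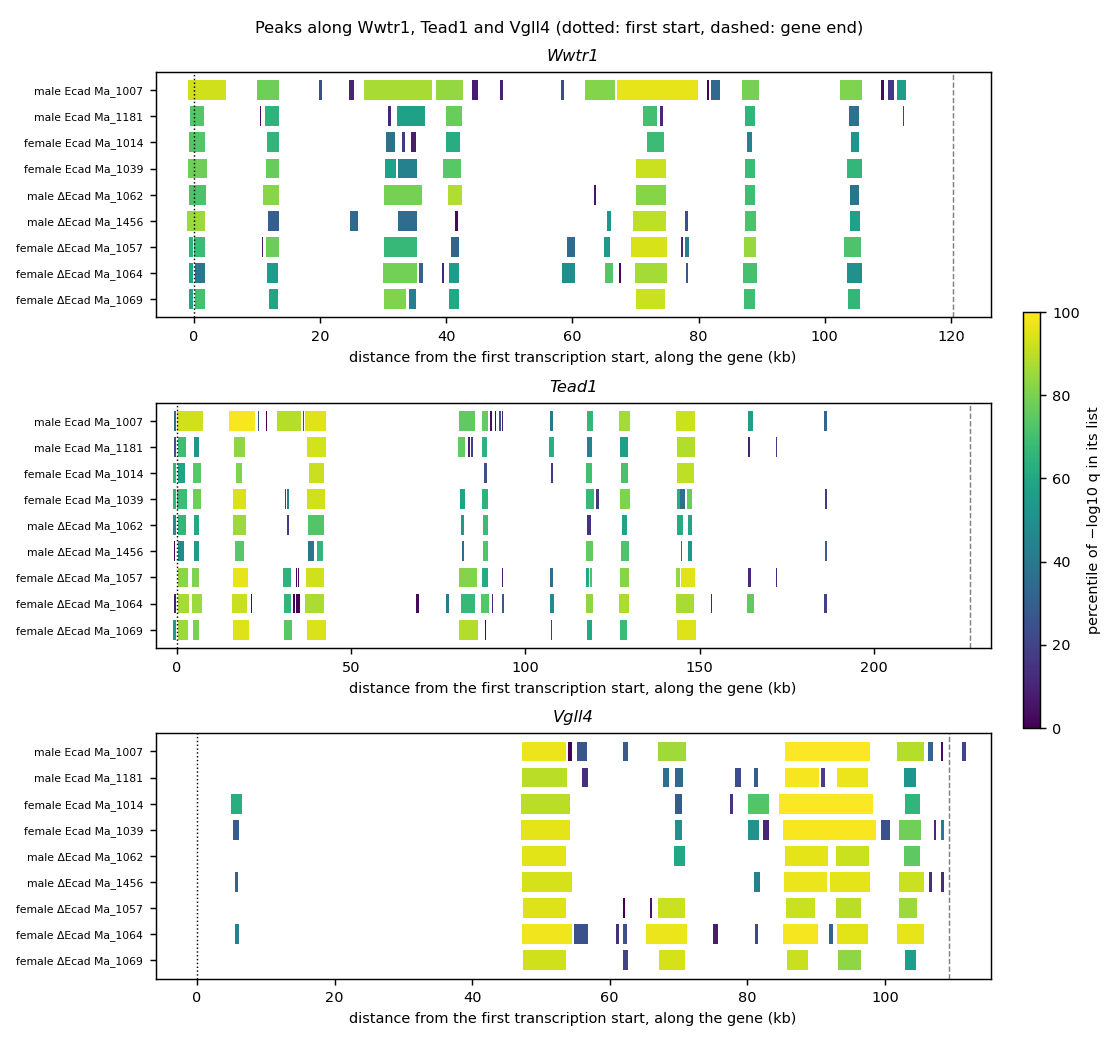
Peaks along Wwtr1, Tead1 and Vgll4 (x axis, kb from the first start along the gene, dotted line at the start and dashed line at the gene end) in the 9 lists (rows), coloured by percentile of −log10 q. Ma_1007 has the widest Wwtr1 element (12860 bp), and the Vgll4 element near 68.3 kb is at percentiles 91.9 to 97.0 in the female ΔEcad rows.

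Tead4, another TEAD factor gene (chromosome 6, 128224288 to 128300823, minus strand), varied widely from line to line. Its covered length was 14.2 and 3.14 kb in male Ecad, 7.69 and 7.74 kb in female Ecad, 1.63 and 7.92 kb in male ΔEcad and 1.86, 6.90 and 0.713 kb in female ΔEcad lines. Low lines (Ma_1181, Ma_1062, Ma_1057 and Ma_1069) stood in 3 of the 4 groups, and no comparison passed the test (exact p = 0.167, 0.127 and 0.556 for female ΔEcad, genotype and sex). Its promoter was called in 8 lists, all but Ma_1057, at percentiles from 17.8 in Ma_1062 to 96.6 in Ma_1007. An intronic element 19.1 kb into the gene, called in all 9 lists, was at percentiles 92.3, 86.1, 85.3, 84.1 and 79.8 in Ma_1456, Ma_1064, Ma_1007, Ma_1039 and Ma_1014 and at 44.1, 40.2, 9.9 and 8.2 in Ma_1062, Ma_1057, Ma_1181 and Ma_1069. The 4 low lines were thus the same at this element as over the whole gene.

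Tead2 (chromosome 7, 45215753 to 45233644, plus strand), for a further TEAD factor, had short peaks in 6 of 9 lists. Their highest percentile was 65.7 in Ma_1007, 66.4 in Ma_1181, 70.9 in Ma_1069 and from 11.1 to 33.4 in the other 3. Its peaks covered 1.26 and 1.48 kb in the male Ecad lines, 0.341 kb in Ma_1039, 0.333 kb in Ma_1062, and 1.47 and 2.12 kb in Ma_1057 and Ma_1069. No peak was called in Ma_1014, Ma_1456 or Ma_1064. Lists with and without a peak stood side by side in 3 of the groups. The peak lay at the first starts, near 45216177 on chromosome 7, in Ma_1007, Ma_1181, Ma_1062, Ma_1057 and Ma_1069, and some 4.1 kb further in, at starts of non-coding transcripts, in Ma_1039, Ma_1057 and Ma_1069, so the call in Ma_1039 rested on the second site alone.

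Of the 7 members with a peak, only Tead2 and Tead4 had a promoter call that varied. For Tead2 these were 2 of the 3 female ΔEcad lists and 4 of the 6 others (p = 1 by a two-sided Fisher's exact test) and for Tead4 they were 2 of 3 and 6 of 6 (exact p = 0.333). Over the 6985 genes with a call in 1 to 8 lists, 14% had an unadjusted p under 0.05 in that comparison, 9.46% by genotype and 5.11% by sex, and neither member did in any of the 3. The pattern of Tead2 calls over the 9 lists was shared by 2 other protein-coding genes and that of Tead4 by 75. By covered length the genes most like Tead2 were Evl, Fam163a and Tcf7 (Pearson's r = 0.97 each) and those most like Tead4 were Tbc1d23, Sema4f and Bckdhb (r = 0.98 each). These correlations are over 9 lines that differ in list length and describe the pattern only.

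Tead3 (chromosome 17, 28331671 to 28350817, minus strand) had no peak of its own. None of its 9 annotated starts was called in any list. The single peak that its window held in each list (chr17:28327203-28329928 when merged) lay beyond the 3′ end of the gene and within 1 kb of a start of Rpl10a, a ribosomal protein gene. Its length was 2.20 and 1.99 kb in male Ecad, 1.85 and 1.89 kb in female Ecad, 1.91 and 2.24 kb in male ΔEcad and 1.61, 1.54 and 0.523 kb in female ΔEcad lines. The difference of −0.787 kb between female ΔEcad and the other lines (exact p = 0.0119, adjusted p = 0.0943) is thus not one within Tead3, and with the gene body alone Tead3 left the test. As a share of the list it was no longer past the threshold (exact p = 0.226).

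Vgll3 (chromosome 16, 65815257 to 65866368, plus strand), for a vestigial-like TEAD partner, had no peak in any of the 9 lists, and neither had its relatives Vgll1 and Vgll2, which were not members. The plot of the smaller loci sets these differences side by side.

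**Figure D5:**
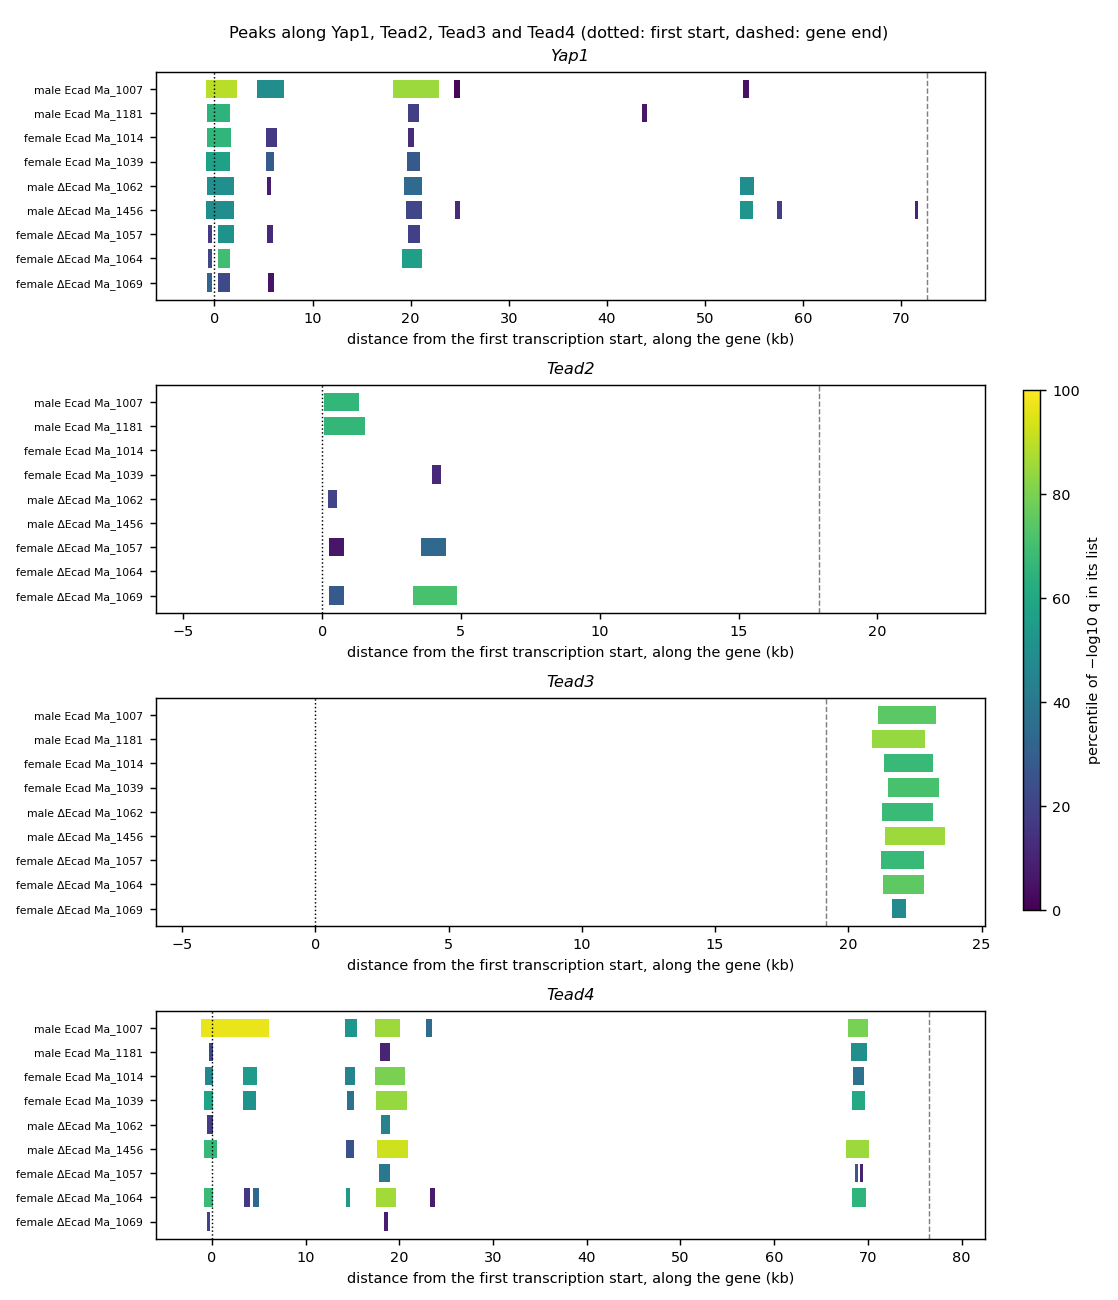
Peaks along Yap1, Tead2, Tead3 and Tead4 (x axis, kb from the first start along the gene, dotted line at the start and dashed line at the gene end) in the 9 lists (rows), coloured by percentile of −log10 q. Tead2 has no bar in Ma_1014, Ma_1456 and Ma_1064, the Tead3 bars all lie beyond the gene end, and Tead4 has no bar at its start in Ma_1057.

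The 3 comparisons regroup the same 9 lines and are not independent. Counted over the members, covered length had an unadjusted exact p under 0.05 for 1 of 7 between female ΔEcad and the other lines (Tead3), for 0 of 7 by genotype and for 2 of 7 by sex (Yap1 and Tead3, both lower in females). Across the 14536 genes the shares were 25.9%, 16.9% and 12.7%, nearly all lower (3548 of 3762, 2429 of 2463 and 1810 of 1851). The median difference was −2.21 kb over the members and −0.606 kb over all genes in the first comparison. As shares of the list, 18.1%, 10% and 8.23% of genes passed, with 717 higher and 1913 lower, 304 and 1153, and 161 and 1036. No gene passed after adjustment in any of these comparisons, the smallest adjusted p being 0.0943.

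The wider pathway gave context. Of 23 genes for Hippo kinases, adaptors and YAP inhibitors, 22 were tested by covered length. These counts stand against the shares of 25.9%, 16.9% and 12.7% over all genes. Between female ΔEcad and the other lines 2 were higher and 2 lower at an unadjusted exact p under 0.05, by genotype 0 and 4, and by sex 1 and 0. Wwc1, which encodes the LATS activator KIBRA, covered 14.4 ± 5.72 kb (SD, n = 3) in female ΔEcad and 3.27 ± 1.90 kb (SD, n = 6) in the other lines, and no line of one group reached the other (exact p = 0.0119, adjusted p = 0.0943).

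Frmd6, for the upstream activator Willin, covered 10.9 ± 3.16 kb (SD, n = 3) against 6.55 ± 1.79 kb (SD, n = 6) in the same comparison (exact p = 0.0476). It was also higher in female than in male lines, 10.0 ± 2.54 (SD, n = 5) against 5.49 ± 0.904 kb (SD, n = 4), with an exact p of 0.00794. The 2 that were lower in female ΔEcad lines were Amotl2, for an angiomotin that binds YAP, with 1.53 ± 0.700 (SD, n = 3) against 8.19 ± 3.81 kb (SD, n = 6), and Wwc2, a relative of Wwc1, at 0 in all 3 lines against 2.38 ± 1.70 kb (SD, n = 6), both with an exact p of 0.0476 (adjusted p = 0.184).

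By genotype, the kinase genes Taok2 and Stk3 were lower in ΔEcad lines. Taok2 covered 0.687 ± 0.522 (SD, n = 5) against 2.73 ± 0.474 kb (SD, n = 4), with an exact p of 0.00794 (adjusted p = 0.217), and Stk3, for MST2, 2.59 ± 0.963 (SD, n = 5) against 7.41 ± 7.11 kb (SD, n = 4), with an exact p of 0.0476. Wwc2 and Amotl2 were the other 2 of the 4 that were lower. By promoter call 3 of 8 varying genes were lower in female ΔEcad lines, where 14% of all varying genes passed (957 of 980 lower), namely Wwc2 and, named after their values were seen, Stk4 (0 of 3 against 6 of 6 lists, exact p = 0.0119) and Amot (0 of 3 against 5 of 6, exact p = 0.0476). Stk4 encodes MST1.

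Of 22 YAP and TAZ target genes 18 were tested by covered length. At an unadjusted exact p under 0.05, 0 were higher and 1 lower (Amotl2, which is in both lists) in female ΔEcad lines. The counts were 0 and 2 in ΔEcad lines, and 1 and 1 in female lines. Over all genes the shares were 25.9%, 16.9% and 12.7%, nearly all lower. Ccn2, the matricellular target also called CTGF, covered 0.108 ± 0.241 kb in ΔEcad (SD, n = 5) and 3.40 ± 2.12 kb in Ecad lines (SD, n = 4), with an exact p of 0.00794 (adjusted p = 0.217). Its promoter was called in 1 of 5 ΔEcad and 4 of 4 Ecad lists (exact p = 0.0476). It was also called in 0 of the 3 female ΔEcad lists and 5 of the 6 others (Fisher's exact p = 0.0476). Amotl2 was the other target that was lower by genotype.

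By promoter call 10 target genes varied. At an unadjusted Fisher's exact p under 0.05, 0 were higher and 2 lower in female ΔEcad lines, and 0 and 3 in ΔEcad lines. Over all varying genes 14% and 9.46% passed, with 957 of 980 and 655 of 661 lower. The promoter of Crim1, a transmembrane protein gene, was called in 0 of 5 ΔEcad and 4 of 4 Ecad lists (exact p = 0.00794, adjusted p = 0.411). The covered length of Crim1 did not follow genotype, with 4.74 ± 3.69 kb in ΔEcad (SD, n = 5) and 4.03 ± 3.04 kb in Ecad lines (SD, n = 4, exact permutation p = 0.778). By sex it was 6.74 ± 2.33 kb in female (SD, n = 5) and 1.52 ± 0.642 kb in male lines (SD, n = 4), with an exact p of 0.0159. F3, for tissue factor, covered 1.58 ± 1.01 kb in female (SD, n = 5) and 8.75 ± 7.21 kb in male lines (SD, n = 4), with an exact p of 0.0476. The promoter of Dock5, a Rac exchange factor gene, had a peak in 0 of the 3 female ΔEcad lists and in 5 of the 6 others (exact p = 0.0476). By genotype it was called in 1 of 5 ΔEcad and 4 of 4 Ecad lists (Fisher's exact p = 0.0476). None of these passed adjustment over all genes.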

How the data were processed

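H3K27ac ChIP-seq was available for 9 mouse melanoma lines, 1 peak list each. The 4 input samples were not analysed here. The authors sonicated fixed chromatin, sequenced pooled libraries and aligned reads with bowtie2 to GRCm38 (mm10). The submitters' processing notes name Bowtie2 2.4.5 and MACS2 2.2.7.1. The peak-calling settings and the input of each list are not given in the sources used here. The deposited lists give per peak a score, a fold enrichment (a linear ratio over local background), a −log10 p and a −log10 q, all the authors' values, and a deposited summit offset in bp. The −log10 q of the deposited peaks was above 5. It was ranked within each list as a percentile and compared between lists only in that form.

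Groups came from the labels. Covered length and promoter calls (a peak within 1 kb of a GENCODE M21 start) were computed for every protein-coding gene in Python 3.11.15 with numpy 2.4.6 and scipy 1.17.1. Female ΔEcad lines were compared with the other 6, ΔEcad with Ecad, and female with male lines, by exact two-sided permutation tests of means and Fisher's exact tests, adjusted by Benjamini-Hochberg over all genes tested. The tests were tested on simulated data. Overlapping or touching peaks were merged into regions, and windows of 300 bases were centred on the median summit. The sequence of 1 such window is not reported here.

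The members and the lists of pathway genes were chosen with earlier results of these data known. All 8 members were named. Pathway genes were named where an unadjusted p was under 0.05, by size of the difference in kb and at most 6 per list, and regions where they covered a start, ranked in the first 3 of the locus by mean percentile or were called in every line of 1 group only, the exceptions being marked in the text. The test of the genotype difference within each sex, the count of peaks in pieces and the order of percentiles were chosen after seeing the data. The alternatives were shortened lists, shares of the list, the gene body alone, a −log10 q of 10 or more, ranks, start distances of 500 and 2500 bp, starts of coding transcripts and leaving out each line. Peak lists hold no read counts, so the depth behind each list is unknown and no counting interval is given.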

Additional observations from a re-analysis of the deposited data

Results flagged for a closer look

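Among 35 sets of 4 to 6 lines tested for a line far from the others, 5 had one. The threshold marks about 1 in 20 independent sets by chance, and these sets are not independent, since they share lines. Ma_1007, the longest list, was the high line in 4 of them. Its Yap1 peaks covered 11.8 kb against 4.03 to 4.71 kb in the other Ecad lines. Its Wwtr1 peaks covered 55.9 kb, far above both the other male lines and the other lines outside the female ΔEcad group, and its Tead1 peaks covered 51.4 kb against 18.1 to 29.1 kb in the 5 remaining lines of that set. Ma_1069, the shortest list, was the low line in the fifth, with 0.523 kb in the Tead3 window against 1.54 to 1.89 kb in the other female lines, in the peak that lies at Rpl10a.

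The genotype difference in Tead1 covered length was 32.0 kb larger in females than in males (exact permutation of genotype labels within each sex, p = 0.0333, adjusted p = 0.564), with ΔEcad lines above Ecad lines in females and below them in males in every line. As a share of the list the difference was 783 bp per Mb, and with lists shortened to the same number of peaks it was 28.4 kb (exact permutation p = 0.0167 for each). Without Ma_1007, which leaves 1 male Ecad line, it was 20.3 kb. On leaving out any 1 female ΔEcad line the exact permutation p was 0.0556, the smallest that the remaining label choices allow. The arrangement was shared by 1.7% of genes. In this test 5.91% of all genes had an unadjusted p under 0.05, 6.96% by share of the list and 6.52% with shortened lists. The test was chosen after these values were seen.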

How the results depend on the processing

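No paired analysis was possible because the replicate numbers follow accession order and do not tie lines of different groups together. Depth is unknown, so a weak peak that was missed in a short list cannot be told from one that was not there, and with 3 against 6 lines no exact p can fall below 0.0119.

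Of 7 members tested, the number with an unadjusted p under 0.05 between female ΔEcad and the other lines was 1. It was 0 with the gene body alone, where Tead3 drops out, 2 with ranks, where Yap1 joined Tead3, and from 1 to 2 without each line in turn. It was 2 without Ma_1007, where Tead1 joined Tead3. By sex the number was 2, and it was 1 with the gene body alone, 1 with ranks and from 0 to 1 without each line, with 0 on leaving out Ma_1007, Ma_1062 or Ma_1456. By genotype, and for promoter calls in all 3 comparisons, it was 0 under every alternative run. Where peaks had to cover the greater part of a merged region, 4 member regions in place of 1 belonged to a single grouping. The Tead1 difference between sexes of 32.0 kb ranged from 20.3 to 43.7 kb without each line.

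Over 21 covered-length results and 291 alternatives, 239 kept direction and side of the threshold, 15 fell below it, 4 rose above it and 33 changed sign. Over 6 promoter results 78 of 81 did not change. As shares of the list the sign changed for Wwtr1 (156 bp per Mb) and Vgll4 (124) in female ΔEcad against the other lines, and for Yap1 (4.93), Wwtr1 (76.8), Tead1 (190) and Vgll4 (54.3) by genotype. With ranks it changed for Wwtr1 (1 in the first comparison and 0.9 by genotype) and Tead2 (-0.45 by genotype). With shortened lists, and with a −log10 q of 10 or more, Tead2 turned to -0.0106 kb by genotype and -0.160 kb by sex, and its promoter call to 10 percentage points by genotype, as with starts of coding transcripts alone. Without each line in turn the sign also changed, over ranges of -4.41 to 3.97 kb for Wwtr1 and -6.56 to 0.243 kb for Vgll4 in the first comparison. By genotype the ranges were -2.18 to 0.406 kb for Yap1, -10.1 to 3.89 kb for Wwtr1, -6.22 to 3.61 kb for Tead1 and -0.322 to 0.251 kb for Tead2. By sex they were -11.4 to 1.14 kb for Wwtr1, -0.857 to 10.3 kb for Tead1, -0.318 to 0.255 kb for Tead2, -3.44 to 0.748 kb for Tead4 and -0.0615 to 3.52 kb for Vgll4. No result that changed sign had an unadjusted exact permutation p under 0.05 as reported or where its sign was changed, and the cause was not tested.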
